A study of Mus musculus with 28 samples.

Results

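The TAM receptors Tyro3, Axl and Mertk and their ligands Gas6 and Pros1 were read out in microglia and astrocytes sorted from mouse brain. They were taken by symbol from the mouse rows of the count table, which gave 5 of 40481 mouse genes. The table covered 28 libraries, 1 of microglia and 1 of astrocytes from each mouse, and 26 libraries of 13 mice were used. Every mouse carried APOE4fl/fl, a floxed human APOE4, and received 2 intraperitoneal doses of tamoxifen, 100 mg/kg, at an age of 3.8 months. Cells were taken 10 days later from cortex, hippocampus and thalamus, microglia by anti-Cd11b-Cy7 and astrocytes by anti-ACSA-2-PE staining. In each sort, 2 libraries came from APOE4fl/fl mice (amyloid-free Cre-negative), 2 from APOE4fl/fl::ALDH1L1-CreERT mice (amyloid-free Cre-positive), 5 from APPPS1::APOE4fl/fl mice (APPPS1 Cre-negative) and 4 from APPPS1::APOE4fl/fl::ALDH1L1-CreERT mice (APPPS1 Cre-positive). APPPS1 mice carry transgenes that lead to amyloid plaques, and ALDH1L1-CreERT is a tamoxifen-inducible Cre meant to remove APOE4 from astrocytes. The labels place 5 mice in each APPPS1 group where the series text has 4, and the exons that Cre removes were not named in them. For 1 astrocyte library the labels do not name the brain regions.

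TAM receptors are receptor tyrosine kinases that read dying cells through a bridge. Gas6 and protein S, the product of Pros1, bind phosphatidylserine on the outer face of a dying cell through a domain that matures with vitamin K, and bind a TAM receptor with their other end. Signalling then drives engulfment and dampens cytokine and interferon responses. Gas6 binds every receptor of the family, and protein S binds Mertk and Tyro3. Mertk is known as an engulfment receptor of resting microglia and of astrocytes, Axl as a receptor raised in inflamed microglia, and Tyro3 as a receptor of neurons and of myelinating cells.

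On GRCm38, Axl (ENSMUSG00000002602) lies at chr7:25757273-25788705 on the minus strand and Mertk (ENSMUSG00000014361) at chr2:128698956-128802894 on the plus strand. Tyro3 (ENSMUSG00000027298) lies at chr2:119797733-119818104 and Pros1 (ENSMUSG00000022912) at chr16:62854307-62929346, both on the plus strand, and Gas6 (ENSMUSG00000031451) at chr8:13465374-13494490 on the minus strand. Mertk overlaps the annotated genes Gm14011 on the other strand and Gm23172 on its own, and Gas6 overlaps Tmem255b on the other strand. No source used here says if counting was stranded, so reads of these overlapping genes may not be told apart. The promoters of the receptors are shown because, below, Axl in microglia divides by amyloid and Tyro3 by sort, while neighbouring groups of Mertk overlap. Each runs from 250 bases before to 50 bases after the start in RefSeq on GRCm38.p6, at chr7:25788684-25788983 on the minus strand for Axl, chr2:128698665-128698964 on the plus strand for Mertk and chr2:119799264-119799563 on the plus strand for Tyro3. Capitals mark GGGCGG, a core motif of Sp1, and GAGGAAG, a form of the motif of the myeloid factor PU.1, read on both strands.
Axl: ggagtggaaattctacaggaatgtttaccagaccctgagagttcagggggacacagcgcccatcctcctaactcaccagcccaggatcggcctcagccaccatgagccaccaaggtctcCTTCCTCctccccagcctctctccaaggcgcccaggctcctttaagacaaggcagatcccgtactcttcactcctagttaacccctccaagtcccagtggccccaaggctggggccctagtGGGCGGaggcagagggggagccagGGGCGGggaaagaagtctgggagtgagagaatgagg
Mertk: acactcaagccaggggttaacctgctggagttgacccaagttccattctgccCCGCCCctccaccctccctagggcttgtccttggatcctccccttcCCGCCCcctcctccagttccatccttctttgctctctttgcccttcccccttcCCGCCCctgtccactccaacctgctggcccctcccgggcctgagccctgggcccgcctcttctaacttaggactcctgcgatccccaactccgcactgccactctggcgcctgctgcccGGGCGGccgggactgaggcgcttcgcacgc
Tyro3: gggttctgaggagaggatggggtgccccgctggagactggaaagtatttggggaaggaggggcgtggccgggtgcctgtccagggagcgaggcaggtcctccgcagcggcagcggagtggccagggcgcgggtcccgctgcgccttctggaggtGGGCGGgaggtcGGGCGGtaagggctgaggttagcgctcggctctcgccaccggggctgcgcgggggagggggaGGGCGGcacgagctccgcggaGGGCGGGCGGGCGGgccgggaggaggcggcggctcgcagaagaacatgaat

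GGGCGG occurred 2 times in the Axl window, 4 times in that of Mertk and 6 times in that of Tyro3, where some copies overlap. The windows of Gas6 and Pros1 held 4 and 5 copies, and 35.7% of all 32851 promoters held at least 1. GAGGAAG had 1 copy in the Axl window and 0 in those of the other members, and 13.6% of promoters held it. TGACTCA, an AP-1 motif that reads TGAGTCA on the other strand, and AGGTCA, a motif of nuclear receptors, had 0 copies in the windows of the 5 genes, and were held by 5.20% and 16.3% of promoters. A match is a description, not a site or a cause.

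Total counts ran from 26162612 to 59238523 per library with a median of 43015901. Human genes took 0.0420% to 0.237% of them, and the human rows of the 5 genes held at most 4 counts in a library. The targeted human APOE stood at 620.5 ± 142 CPM in APPPS1 Cre-positive astrocytes (SD, n = 4) and 1521 ± 226 CPM in APPPS1 Cre-negative astrocytes (n = 5). In amyloid-free astrocytes it stood at 723 ± 286 CPM with Cre and 1231 ± 254 CPM without (n = 2 each), so its counts were lower but not gone with Cre. The 10 microglia markers summed to 17037 to 46676 CPM in microglia and to 79.1 to 125 CPM in astrocyte libraries. The 10 astrocyte markers summed to 176 to 441 CPM in microglia and 15347 to 25433 CPM in astrocyte libraries. The microglia library of mouse 26, amyloid-free Cre-positive, had the lowest sum of microglia markers. Both libraries of mouse 459, APPPS1 Cre-positive, carried the markers of the other sort and were left out.

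Levels are CPM, the counts of a gene relative to the library's total as scaled by TMM, with the SD over mice. Differences are log2 changes with the standard error of edgeR's quasi-likelihood test, called at an adjusted p under 0.05 (Benjamini-Hochberg over all mouse genes tested). The p-values measure the spread between these mice, 2 of them in each amyloid-free group.

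**Figure D1:**
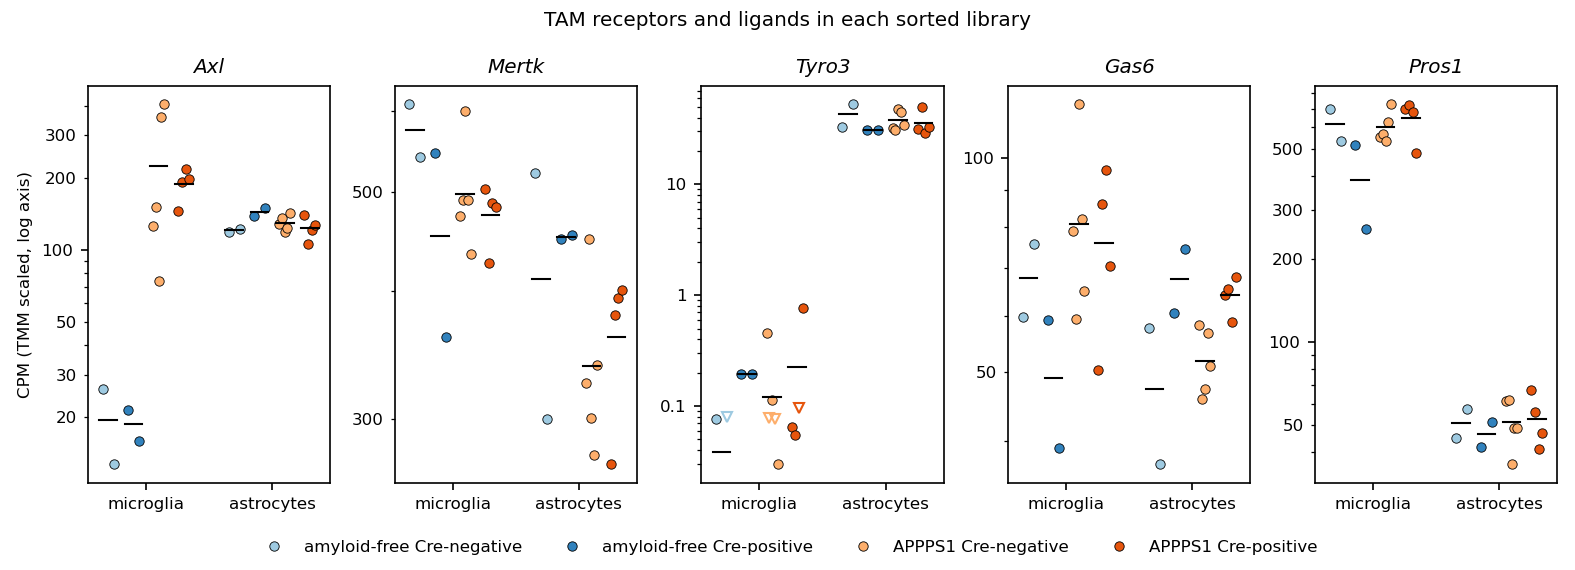
CPM on a log axis of each member in each library, 1 circle per mouse, with horizontal bars at group means. Open triangles mark libraries with 0 counts, drawn at the level of 3 counts. Axl in microglia divides by amyloid (12.7 to 26.3 CPM without, 73.7 to 406 CPM with), and Tyro3 and Pros1 divide by sort.

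Both sorts expressed Axl, Mertk, Gas6 and Pros1, and Tyro3 was near 0 in microglia. Pros1 was higher in microglia than in astrocytes by 3.45 ± 0.15 on the log2 scale (adjusted p 1.73e-15), a fold of 11.0, and Mertk by 0.36 ± 0.11 (adjusted p 0.00508). Tyro3 was lower in microglia at -8.20 ± 0.54 (adjusted p 4.07e-12), and so was Axl, averaged over the 4 genotype groups, at -1.05 ± 0.21 (adjusted p 1.34e-04). This Axl average joins opposite orders of the sorts, -2.79 in amyloid-free and 0.69 in APPPS1 mice. Gas6 was not called, at 0.23 ± 0.13 (adjusted p 0.0991). The 4 of 5 members called stand beside 76.5% of all genes called, 35.4% higher and 41.1% lower in microglia, so that being called is not particular to them. With DESeq2 size factors the Mertk difference was 0.25 (edgeR adjusted p 0.0446). In bulk libraries fewer cells of a type and less RNA per cell cannot be told apart. Astrocyte libraries also held 2303 to 19487 CPM of oligodendrocyte markers, and the part of these cells in the differences was not tested. Without mouse 22 the Mertk call was lost (adjusted p 0.0644), and without mouse 465 Gas6 was called at 0.36 (adjusted p 0.0340).

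Per kilobase of exon, Mertk was the most abundant receptor in all 26 libraries. In microglia its level was 114 ± 15.8 CPM per kb (n = 13), against 29.7 ± 25.2 for Axl. In astrocytes the levels per kb were 86.3 ± 18.3 for Mertk, 25.5 ± 2.40 for Axl and 5.99 ± 1.37 for Tyro3. The ligands were ordered differently in the sorts. Pros1 led in microglia at 143 ± 32.1 CPM per kb against 28.4 ± 8.18 for Gas6, and Gas6 led in astrocytes at 22.5 ± 3.95 against 12.5 ± 2.25 for Pros1. Pros1 thus made up 83.6% ± 3.40 of the ligand level per kb in amyloid-free microglia (n = 4) and 83.0% ± 4.56 in APPPS1 microglia (n = 9). The shares in astrocytes were 35.5% ± 9.10 and 36.1% ± 5.09. The order in astrocytes depends on the length used. Before division by length, Gas6 stood at 57.4 ± 10.1 CPM and Pros1 at 51.1 ± 9.22 CPM there. With the longest transcript as the length, the astrocyte shares of Pros1 were 40.3% ± 9.41 and 41.1% ± 5.31. They reached 54.3% in mouse 759 and 51.0% in mouse 447.

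**Figure D2:**
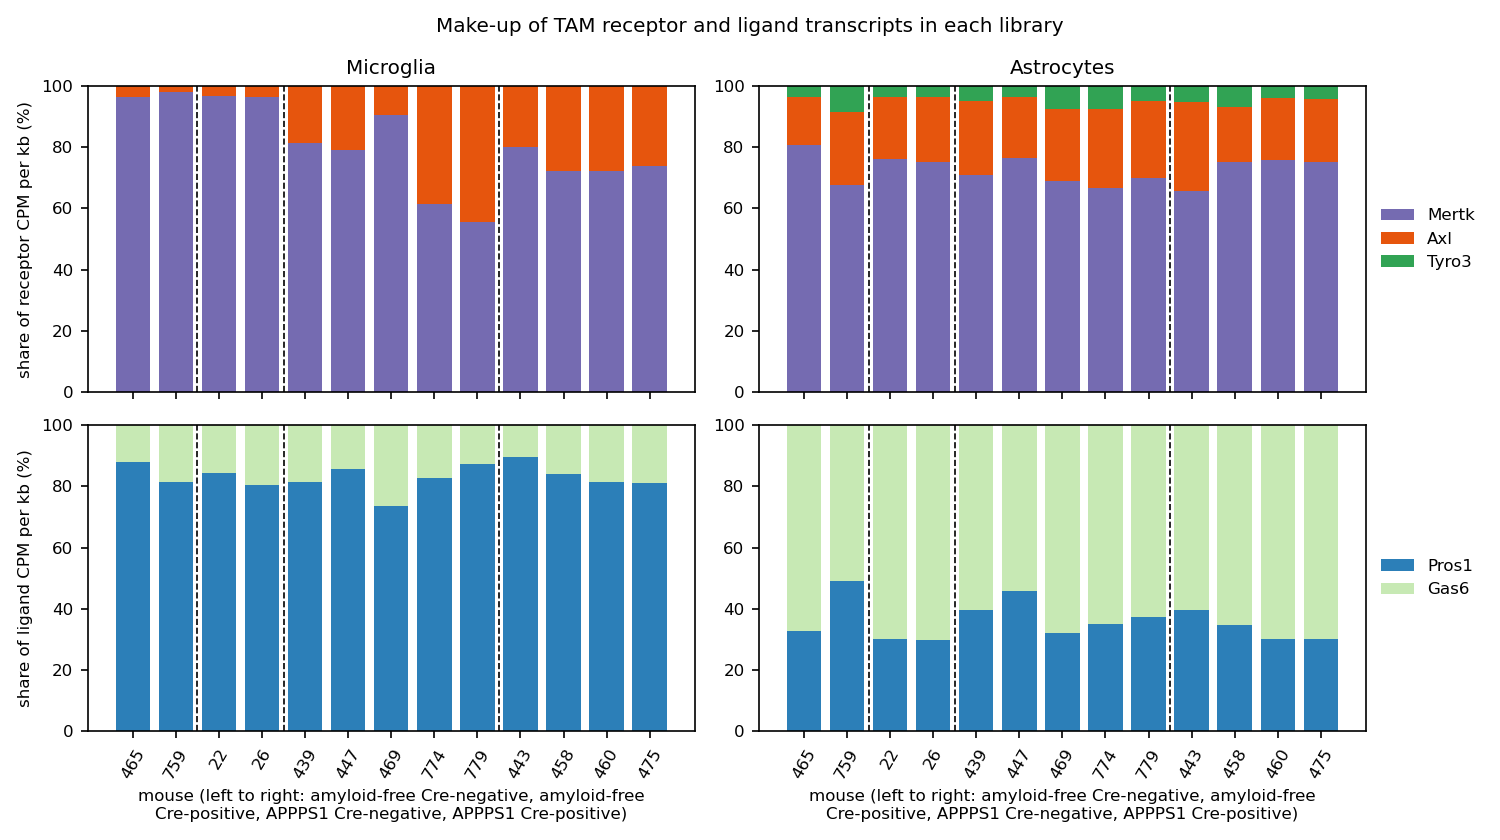
Share in percent of the summed CPM per kb of the receptors (top) and of the ligands (bottom) in each library, microglia left and astrocytes right, with dashed lines between genotype groups. Axl takes 1.98% to 3.67% of the receptor level in amyloid-free microglia and 9.56% to 44.6% in APPPS1 microglia.

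Axl, the receptor for Gas6 that inflamed microglia raise, was the member that rose with amyloid. In amyloid-free microglia it stood at 12.7 CPM in mouse 759 and 26.3 CPM in mouse 465 without Cre, and at 15.9 CPM in mouse 26 and 21.5 CPM in mouse 22 with Cre. In APPPS1 Cre-negative microglia it stood at 73.7 CPM in mouse 469, 125 CPM in mouse 439, 151 CPM in mouse 447, 359 CPM in mouse 774 and 406 CPM in mouse 779. In APPPS1 Cre-positive microglia it stood at 145, 191, 197 and 217 CPM in mice 443, 458, 475 and 460. All 9 APPPS1 libraries lay above all 4 amyloid-free ones, and mice 774 and 779 stood above the other 7. The highest APPPS1 library had 5.51 times the Axl of the lowest, against 2.36 times for Gas6, 1.5 times for Pros1 and 1.41 times for Mertk.

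Averaged over Cre, Axl was higher in APPPS1 microglia by 3.40 ± 0.44 (adjusted p 9.95e-04), a fold of 10.6, in 9 of 9 mice. It was the 1 member called of 5, beside 9.58% of genes called and 6.06% called higher. The call held in all 18 alternatives, which gave changes of 3.23 to 3.73. Within Cre-negative mice Axl was higher by 3.53 ± 0.62 (adjusted p 0.0263), the 1 member called beside 0.313% of genes. Within Cre-positive mice it was higher by 3.28 ± 0.62 (adjusted p 0.0189), the 1 member called beside 7.05% of genes. The difference between these changes was -0.25 ± 0.72 (adjusted p 0.942), and no member was called for such a difference, beside 0% of genes. There edgeR called 0 genes, with 1527 genes and 0 members at an unadjusted p under 0.05, and DESeq2 called 51 genes and 0 members.

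The calls within 1 Cre state rest on few mice. In Cre-negative mice the Axl call was lost without mouse 465 (adjusted p 0.260) or mouse 759 (adjusted p 0.362), with limma voom (adjusted p 0.0699) and with the compared groups alone in the fit (adjusted p 0.156). In Cre-positive mice it was lost without mouse 26 (adjusted p 0.282) or mouse 458 (adjusted p 0.0511). The size of the change stayed between 3.11 and 4.12 in the former and 3.14 and 3.57 in the latter over the left-out mice. With mouse 459 kept under its labels, the adjusted p was 0.542 in Cre-negative and 0.163 in Cre-positive mice.

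Astrocytes also express Axl, and their 10 markers summed to 219.6 to 441 CPM in amyloid-free microglia and 176 to 274 CPM in APPPS1 microglia, with 0 to 3 of the 10 at 0 in a library. Border macrophage markers summed to 193 to 620.3 CPM and 201 to 316 CPM, and endothelial markers to 76.4 to 284 CPM and 46.6 to 106 CPM. Monocyte and neutrophil markers summed to 1255 to 5037 CPM and 206 to 5033 CPM, and pericyte and smooth muscle markers to 7.03 to 64.9 CPM and 5.50 to 25.1 CPM. In each of these lists, unlike that of oligodendrocytes below, the highest sum was in an amyloid-free library. For monocytes and neutrophils the amyloid states nearly met. Within 1 Cre state the order turned in some lists and otherwise did not. In Cre-negative mice monocyte and neutrophil sums reached 5033 CPM with amyloid and 2098 CPM without, and pericyte and smooth muscle sums 25.1 and 10.8 CPM. In Cre-positive mice border macrophage sums reached 307 CPM with amyloid and 294 CPM without. Oligodendrocyte markers summed to 169.5 to 226 CPM without and 130.2 to 291 CPM with amyloid, with the highest sum in an APPPS1 library. The part of any of these cells in the Axl change was not tested.

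In astrocytes Axl lay in a narrow band. It stood at 119 and 122 CPM in amyloid-free Cre-negative mice, 138 and 149.6 CPM in amyloid-free Cre-positive mice, 119, 123, 128, 136 and 142 CPM in APPPS1 Cre-negative mice and 105, 121, 127 and 139 CPM in APPPS1 Cre-positive mice. The ranges with and without amyloid overlapped, and the change with amyloid was -0.055 ± 0.092 (adjusted p 0.974). The amyloid change of Axl was larger in microglia than in astrocytes by 3.48 ± 0.44 (adjusted p 6.05e-04), the 1 member called beside 1.5% of genes. Both sorts came from the same mice, and with the mouse as a replicate block the difference was 3.39 (adjusted p 0.00918), while the genes called went from 325 to 80.

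The order of the sorts in Axl turned with amyloid, a comparison added after the levels were seen. In amyloid-free mice Axl was lower in microglia at -2.79 ± 0.37 (adjusted p 1.00e-06), and in APPPS1 mice it was higher at 0.69 ± 0.24 (adjusted p 0.0110). With the mouse as a replicate block the differences were -2.84 (edgeR adjusted p 1.62e-05) and 0.55 (edgeR adjusted p 0.0444). Among APPPS1 mice, the microglia of 7 lay above every astrocyte library of these mice, those of mouse 439 within that astrocyte range and those of mouse 469 below it. Of the members, 3 were called between the sorts in amyloid-free mice, beside 61.9% of genes, and 5 in APPPS1 mice, beside 75.8%. By group mean, APPPS1 Cre-negative microglia (223 ± 149 CPM) came first, then APPPS1 Cre-positive microglia (188 ± 30.3 CPM), the 4 astrocyte groups from 144 ± 8.06 to 121 ± 2.38 CPM, and amyloid-free microglia without Cre (19.5 ± 9.62 CPM) and with Cre (18.7 ± 3.90 CPM). Neighbours in this order overlapped, except the lowest astrocyte group and the amyloid-free microglia after it.

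Mertk, the engulfment receptor that leads in both cells, was not called in any comparison by amyloid or Cre. In microglia it stood at 541 and 609.5 CPM in amyloid-free Cre-negative mice, and at 361 CPM in mouse 26 and 546 CPM in mouse 22, both amyloid-free Cre-positive. It stood at 435, 473, 491, 492 and 600.5 CPM in APPPS1 Cre-negative and 426, 483, 488 and 504 CPM in APPPS1 Cre-positive microglia. The ranges with and without amyloid overlapped, and mouse 26 was the lowest of the 13. The change with amyloid was -0.089 ± 0.13 (adjusted p 0.697), and turned to 0.11 without mouse 22. Per kb, Axl stood at 0.0323 ± 0.00830 times the Mertk level in amyloid-free microglia (n = 4) and 0.378 ± 0.216 times in APPPS1 microglia (n = 9). It reached 0.804 times in mouse 779.

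In astrocytes Mertk stood at 300.1 and 522 CPM in amyloid-free mice without Cre, and at 449.8 and 454 CPM in those with Cre. It stood at 277, 301, 325, 339 and 449.9 CPM in APPPS1 Cre-negative and 271, 379, 394 and 401 CPM in APPPS1 Cre-positive mice. The ranges overlapped, with the highest level in an amyloid-free and the lowest in an APPPS1 mouse, and the change with amyloid was -0.30 ± 0.16 (unadjusted p 0.0828, adjusted p 0.765). No member was called for amyloid in astrocytes, beside 0% of genes. There edgeR called 0 genes, with 1409 genes and 0 members at an unadjusted p under 0.05, and DESeq2 called 254 genes and 0 members. Between the sorts Mertk was higher in microglia by 0.48 ± 0.12 in APPPS1 mice (adjusted p 0.00135) and differed by 0.25 ± 0.18 in amyloid-free mice (adjusted p 0.248). The difference of these values was not called, at 0.23 ± 0.22 (adjusted p 0.698). With DESeq2 size factors Mertk differed between the sorts by 0.35 in APPPS1 mice (edgeR adjusted p 0.0123) and 0.14 in amyloid-free mice (edgeR adjusted p 0.514). All neighbours in the order of its 8 group means overlapped, from 575 ± 48.2 CPM in amyloid-free Cre-negative microglia to 338 ± 66.7 CPM in APPPS1 Cre-negative astrocytes.

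Tyro3, the receptor of neurons and myelinating cells, was found in the astrocyte sort. The 13 microglia libraries held 74 Tyro3 counts in all. No count was found in 4 of these libraries, and the highest, that of mouse 475, had 35 counts or 0.770 CPM. A count of 0 allows up to 3 counts, which is 0.0768 to 0.0959 CPM in those 4 libraries, for counting error only. At this depth no fold by amyloid or Cre is given for microglia. In astrocytes Tyro3 stood at 32.7 and 53.1 CPM in amyloid-free mice without Cre, 31.1 and 31.2 CPM in those with Cre, 31.2, 32.6, 34.3, 45.1 and 47.7 CPM in APPPS1 Cre-negative and 29.3, 31.5, 32.9 and 50.3 CPM in APPPS1 Cre-positive mice. By group mean the astrocyte groups ran from 42.9 ± 14.4 CPM in amyloid-free Cre-negative to 31.1 ± 0.0744 CPM in amyloid-free Cre-positive mice with neighbours overlapping, all far above the microglia groups, and the change with amyloid was 0.022 ± 0.18 (adjusted p 1.0).

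Oligodendrocyte markers moved with Tyro3 in the astrocyte sort. The libraries with the most Tyro3 were those of mice 759, 458, 469 and 774, at 53.1, 50.3, 47.7 and 45.1 CPM, and the other 9 had 29.3 to 34.3 CPM. In those 4 the 8 oligodendrocyte markers summed to 19487, 10906, 12829 and 10444 CPM, and in the other 9 to 2303 to 8791 CPM. The 4 libraries came from 3 genotype groups. The part of these cells in the Tyro3 level was not tested.

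**Figure D3:**
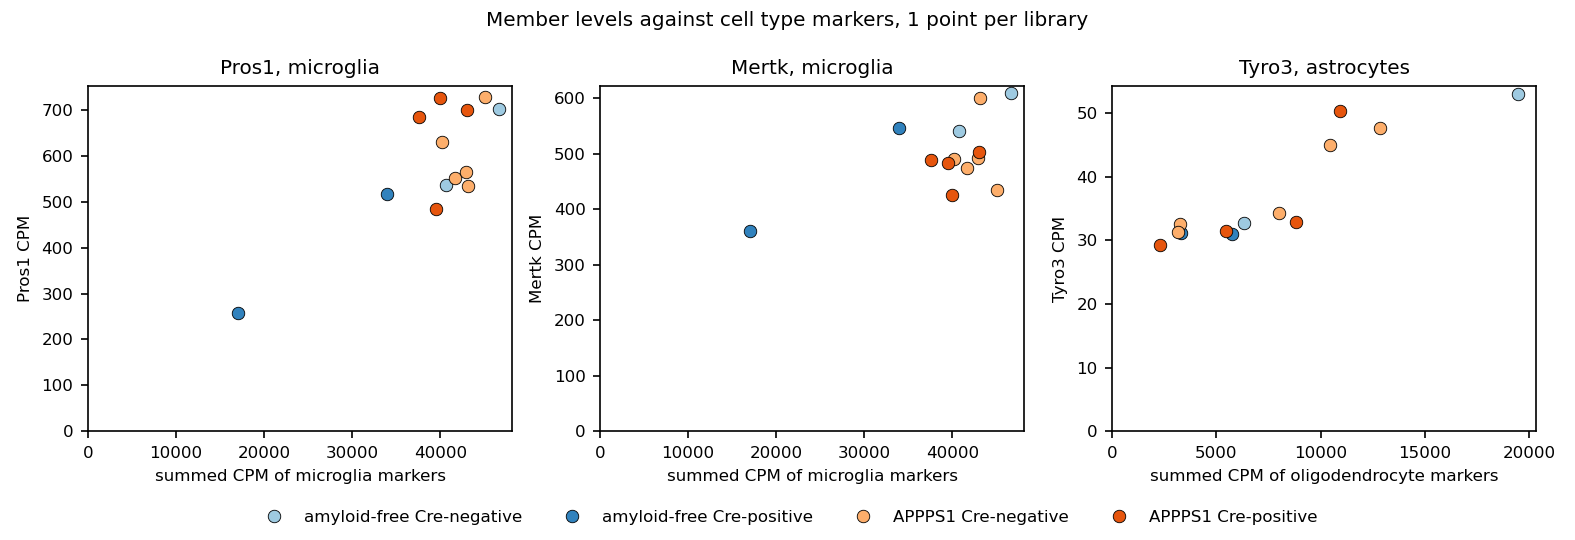
CPM of Pros1 and Mertk in microglia against the summed CPM of 10 microglia markers, and of Tyro3 in astrocytes against the summed CPM of 8 oligodendrocyte markers, 1 point per library. Mouse 26 (17037 CPM of microglia markers) is lowest in Pros1 and Mertk, and the 4 libraries with 10444 CPM or more of oligodendrocyte markers have the most Tyro3.

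Gas6, the ligand of all receptors of the family, lay at similar levels in both sorts. In microglia it stood at 59.7 and 75.8 CPM in amyloid-free mice without Cre, 39.2 and 59.1 CPM in those with Cre, 59.3, 64.9, 78.9, 81.9 and 119 CPM in APPPS1 Cre-negative and 50.4, 70.5, 86.2 and 96.2 CPM in APPPS1 Cre-positive mice. The ranges with and without amyloid overlapped, with 5 of 9 APPPS1 libraries above every amyloid-free one, and the change was 0.42 ± 0.22 (adjusted p 0.225). Between the sorts Gas6 was higher in microglia by 0.44 ± 0.14 in APPPS1 mice (adjusted p 0.00776), a call lost with DESeq2 size factors at 0.32 (adjusted p 0.0511) and the DESeq2 test (adjusted p 0.0531). In amyloid-free mice the difference was 0.027 ± 0.21 (adjusted p 0.937), which turned to -0.074 with DESeq2 size factors. The amyloid changes of the sorts differed by 0.41 ± 0.25 (adjusted p 0.464). Group means ran from 80.8 ± 23.3 CPM in APPPS1 Cre-negative microglia to 47.4 ± 14.6 CPM in amyloid-free Cre-negative astrocytes, and neighbours in that order overlapped except APPPS1 Cre-positive and Cre-negative astrocytes.

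In astrocytes Gas6 had its lowest unadjusted p-values in the comparisons by Cre. In amyloid-free mice it stood at 37.1 and 57.8 CPM without and 60.6 and 74.5 CPM with Cre, and in APPPS1 mice at 45.9, 47.4, 51.1, 56.8 and 58.2 CPM without and 58.9, 64.1, 65.5 and 68.0 CPM with Cre. In neither amyloid state did the Cre groups overlap, though in APPPS1 mice the nearest libraries almost met. The difference was 0.50 ± 0.20 in amyloid-free mice (unadjusted p 0.0259, adjusted p 0.295) and 0.30 ± 0.13 in APPPS1 mice (unadjusted p 0.0416, adjusted p 0.730), and was called in neither. No member was called for Cre in astrocytes, beside 0.204% of genes in amyloid-free and 0.00997% in APPPS1 mice. With edgeR, Gas6 was the 1 member at an unadjusted p under 0.05 in each, and DESeq2 called 0 members and 875 and 36 genes. Library make-up also divided by Cre in amyloid-free astrocytes. Oligodendrocyte markers summed to 6305 to 19487 CPM without and 3300 to 5732 CPM with Cre, and astrocyte markers to 15347 to 22245 and 24090 to 25433 CPM. In APPPS1 astrocytes the oligodendrocyte sums overlapped, at 3138 to 12829 CPM without and 2303 to 10906 CPM with Cre. The part of this make-up in the Gas6 difference was not tested.

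Pros1, which encodes protein S, was the more abundant ligand in microglia. There it stood at 536 and 701 CPM in amyloid-free Cre-negative mice, and at 258 CPM in mouse 26 and 517 CPM in mouse 22, both amyloid-free Cre-positive. It stood at 535, 552, 565, 629 and 729 CPM in APPPS1 Cre-negative and 485, 684, 699.9 and 725 CPM in APPPS1 Cre-positive microglia. Mouse 26 stood well below the other 12 libraries. In astrocytes Pros1 ranged from 36.1 to 67.4 CPM with a median of 49.1 CPM over 13 libraries, so that mouse 26 too lay above every astrocyte library. Pros1 was higher in microglia by 3.33 ± 0.23 in amyloid-free mice (adjusted p 3.85e-11) and 3.58 ± 0.16 in APPPS1 mice (adjusted p 3.90e-15). By group mean, the 3 other microglia groups, 648 ± 110.4 to 602 ± 79.1 CPM, overlapped, amyloid-free Cre-positive microglia (387 ± 184 CPM) had a lower mean and overlapped APPPS1 Cre-positive microglia alone, and the astrocyte groups, 52.8 ± 11.5 to 46.6 ± 6.66 CPM, lay below these. In astrocytes the change with amyloid was 0.10 ± 0.16 (adjusted p 0.974).

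The amyloid change of Pros1 in microglia was 0.34 ± 0.18 (adjusted p 0.234), and its Cre difference in amyloid-free microglia was -0.62 ± 0.29 (unadjusted p 0.0498, adjusted p 0.338). Both turn on the amyloid-free Cre-positive pair. Without mouse 22, which leaves mouse 26 as the lone library of that group, the amyloid change was called at 0.66 (adjusted p 0.0241) and the Cre difference at -1.24 (adjusted p 0.0315). Without mouse 26 the amyloid change was 0.16 (adjusted p 0.635) and the Cre difference -0.23 (adjusted p 0.988). Within Cre-positive mice the amyloid change was 0.70 ± 0.26 (adjusted p 0.101), and was called without mouse 22 at 1.35 (adjusted p 0.0119) and with DESeq2 at 0.71 (adjusted p 0.0439). Mouse 26 had 17037 CPM of microglia markers and 5037 CPM of monocyte and neutrophil markers, and the next lowest sum of microglia markers was 33916 CPM in mouse 22. The part of this in its Pros1 and Mertk levels was not tested.

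**Figure D4:**
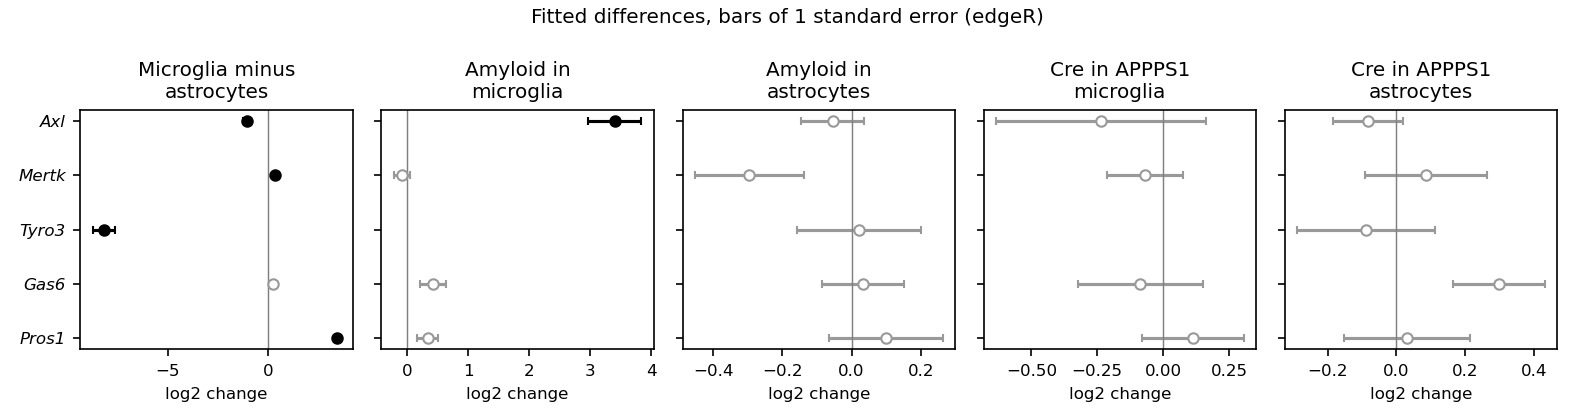
Log2 differences with bars of 1 standard error for each member in 5 comparisons, filled where called, each panel with its own axis. Axl at 3.40 is the 1 filled point for amyloid in microglia, 4 points are filled between the sorts, and 0 for amyloid in astrocytes or for Cre in APPPS1 mice. Tyro3 is left out of the microglia panels for its low counts.

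Cre-positive mice, which kept part of their astrocyte APOE counts, were compared with Cre-negative mice within each amyloid state, and no member was called in microglia. In APPPS1 microglia the Cre differences were -0.24 ± 0.40 for Axl, -0.070 ± 0.14 for Mertk, -0.088 ± 0.24 for Gas6 and 0.11 ± 0.19 for Pros1. The background was 0.00568% of genes, with 0 members called or at an unadjusted p under 0.05 by edgeR, and 6 genes and 0 members called by DESeq2. In amyloid-free microglia the background was 0.0114% of genes, with 0 members called by edgeR, 1 (Pros1) at an unadjusted p under 0.05, and 347 genes and 0 members called by DESeq2. In APPPS1 microglia the Cre-positive Axl levels lay inside the Cre-negative range, and the sign of the Axl difference turned with limma voom (0.025).

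The genes around TAM signalling were followed in 7 lists of 78 genes, of which 70 were tested in microglia, 4 rose and 6 fell with amyloid. Over all 17593 genes tested 9.58% were called, 1066 of them (6.06%) higher and 619 lower. The share called higher among the lists was near that of all genes, and the share called lower was above it. The lists were not tested against other genes, so these shares are not a result about them. Among the other receptors and bridging proteins for phosphatidylserine, 2 of 14 tested genes were called higher and 1 lower, with a median change of 0.14 against -0.053 over all genes. Trem2, a lipid receptor of the microglial plaque response, had 1306 ± 509 CPM in amyloid-free (n = 4) and 3161 ± 716 CPM in APPPS1 mice (n = 9) and rose by 1.30 ± 0.21, adjusted p 0.00347. Mfge8, a secreted bridge to integrins, rose from 57.3 ± 16.9 to 116 ± 38.3 CPM, by 0.99 ± 0.25, adjusted p 0.0250. Cd36, a scavenger receptor, fell from 72.9 ± 26.5 to 40.4 ± 12.1 CPM, with a change of -0.83 ± 0.23, adjusted p 0.0378. Of 18 alternatives, 17 called Trem2, 15 Mfge8 and 7 Cd36.

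On the list for ligand maturation, 1 of 5 tested genes were called higher and 0 lower, with a median of 0.028. Vkorc1, the reductase that recycles vitamin K, rose from 20.8 ± 3.49 to 43.8 ± 10.7 CPM, by 1.05 ± 0.20, adjusted p 0.00806, and was called in 17 of 18 alternatives. For receptor shedding, 0 of 5 tested genes were called higher and 0 lower, with a median of -0.21. For engulfment signalling, 0 of 19 tested genes were called higher and 2 lower, with a median of -0.11: Vav3, an exchange factor for Rac (-1.70), and Pik3r1, a subunit of PI3-kinase (-0.86). For the inflammation brake, 1 of 8 tested genes were called higher and 0 lower, with a median of -0.30, and the called gene was the interferon receptor chain Ifnar2 (0.51). On the list around nuclear receptors that regulate Mertk, 0 of 10 tested genes were called higher and 1 lower, with a median of -0.20. The called gene was the transcription factor Maf (-0.58). For phosphatidylserine exposure, 0 of 9 tested genes were called higher and 2 lower, with a median of -0.39: the flippase Atp11b (-0.57) and the scramblase Ano6 (-0.48).

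These counts depend on single mice. The 4 genes that rose became 2 without mouse 26 or 759 and 7 without mouse 22. The 6 that fell became 0 without mouse 26, 458, 465 or 759, 1 without mouse 475 or 774 and 3 without mouse 22. Trem2 and Vkorc1 were called whichever of the 13 mice was left out, and with mouse 459 kept under its labels 0 genes of the lists were called. Within Cre-positive mice, Trem2 (1.59), the phosphatidylserine receptors Havcr2 (0.78) and Timd4 (2.48) and Vkorc1 (1.11) rose and Atp11b (-0.77) fell, beside 7.05% of all genes called, a share close to that of the lists. Within Cre-negative mice 0 genes of the lists were called by edgeR, with 8 at an unadjusted p under 0.05.

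**Figure D5:**
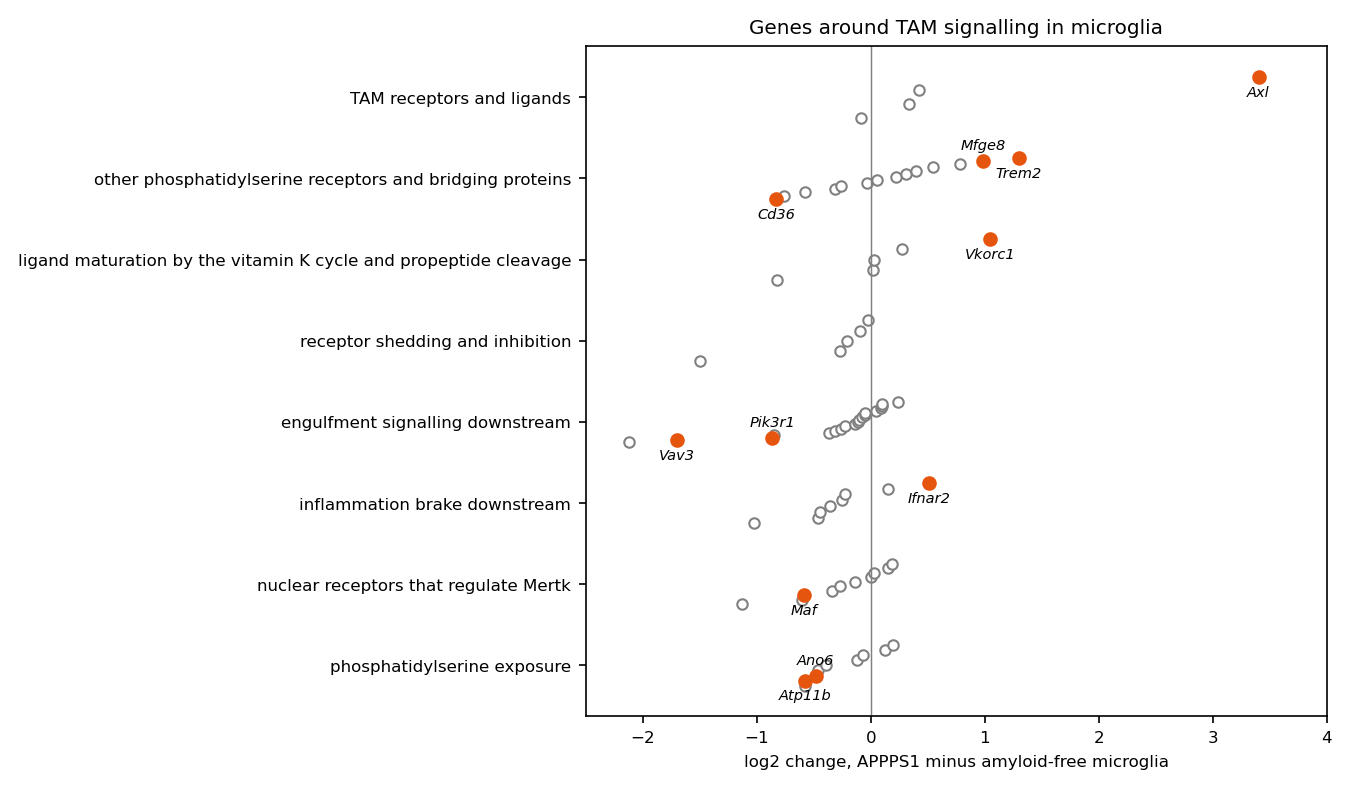
Log2 change with amyloid in microglia of each tested gene among the members and 7 lists around them, 1 point per gene, called genes filled and named. Axl at 3.40 lies above every gene of the lists, of which 4 are called higher and 6 lower.

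Between the sorts, 46 of 76 tested genes of the lists were higher in microglia and 20 lower, where over all genes 76.5% were called, 35.4% higher and 41.1% lower. The lists were not tested against other genes, and being called is common between the sorts. Of the other phosphatidylserine receptors and bridges, 12 of 18 tested genes were called higher and 5 lower, with a median of 4.03 against -0.18 over all genes. The scavenger receptor Stab1 (7.99) and the integrin Itgb5 (2.81) were higher in microglia, and Mfge8 (-5.64) in astrocytes. For ligand maturation, 2 of 5 tested genes were called higher and 1 lower: the propeptide protease Furin (1.79) and Vkorc1 (1.56) were higher in microglia and the quinone reductase Nqo1 (-4.33) in astrocytes. For shedding, 3 of 5 tested genes were called higher and 2 lower: the sheddases Adam17 (2.59) and Adam10 (2.04) were higher in microglia and their inhibitor Timp3 (-7.83) in astrocytes.

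For engulfment signalling, 10 of 19 tested genes were called higher in microglia and 7 lower. The genes named, chosen by low p, were all from the smaller set of 7, higher in astrocytes. They were the adaptor Bcar1 (-7.51), the kinase Ptk2 (-4.75) and the exchange factor Dock1 (-1.59). For the inflammation brake, 6 of 9 tested genes were called higher and 0 lower, among them the cytokine inhibitor Socs3 (7.57), Ifnar2 (2.00) and the kinase Tyk2 (1.71). On the list around nuclear receptors that regulate Mertk, 7 of 10 tested genes were called higher and 1 lower. Among them were Maf (6.74) and, listed though not as regulators of Mertk, the ubiquitin ligase Mylip (5.19) and the sterol exporter Abcg1 (3.35). For phosphatidylserine exposure, 6 of 10 tested genes were called higher and 4 lower, among them the flippase Atp11a (-1.80), higher in astrocytes, and the scramblase Ano6 (0.97), higher in microglia. With Cre in amyloid-free astrocytes the phosphatidylserine receptor gene Adgrb1 was higher by 1.42 ± 0.25, adjusted p 0.0479, beside 0.204% of genes called. With 2 mice a side, the genes called in this comparison depended on single mice.

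The genes whose log2 CPM followed a member most closely were named by Pearson's r over the 13 libraries of the sort where the member has the higher mean, 8134 genes in microglia and 9591 in astrocytes. The libraries share amyloid state and make-up, so r is a description. With Axl in microglia went Nceh1 (0.988), Csf1 (0.980), Myo1e (0.979), Lpl (0.979), Chst2 (0.979). Csf1 encodes a growth factor of microglia and Lpl a lipoprotein lipase. Over the 9 APPPS1 libraries alone, a choice made after the levels were seen, Cd5 (0.966), Nceh1 (0.962), Plpp1 (0.960), Guca1a (0.959) were among the closest. With Mertk in microglia went Gcnt1 (0.930), Phf20 (0.928), Cmtm6 (0.916), Mfap3 (0.912), Rap1gds1 (0.911). With Tyro3 in astrocytes went Hdac11 (0.917), Ttll7 (0.908), Slain1 (0.906), Klhl4 (0.906), Zdhhc20 (0.901). With Gas6 in microglia went Myh10 (0.871), Pik3r2 (0.870), Wdr46 (0.868), Otud7b (0.847), C2cd2l (0.842). With Pros1 in microglia went Nudt16l1 (0.949), Naa35 (0.946), Asah1 (0.935), Erap1 (0.932), among which Asah1 encodes a lysosomal ceramidase.

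Among the members themselves, 10 pairs were compared over the 9 APPPS1 microglia libraries, and none passed after adjustment. The lowest p was that of Tyro3, which is near 0 counts there, and Pros1, with r -0.71 (exact two-sided permutation p 0.0171, adjusted 0.171) and Spearman's rho -0.51 (exact permutation p 0.169, adjusted 0.531). Without the 2 libraries farthest from the median of Tyro3 its r was -0.21. For Axl and Mertk, r was -0.68 (exact two-sided permutation p 0.0481, adjusted 0.240) and Spearman's rho -0.47 (exact permutation p 0.213, adjusted 0.531). Without the 2 libraries farthest from the median of Axl, r was 0.032. Leaving them out also narrows the range of Axl, which can itself lower r. The value therefore does not show that the relation rests on those libraries.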

How the data were processed

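RNA of FACS-sorted microglia and astrocytes was extracted with miRNeasy columns and made into SMARTer libraries, per the labels' protocols. The deposited values are raw read counts per gene in 1 table of mouse and human genes. The submitters' processing notes name bcl2fastq, STAR, Subread featureCounts and the builds GRCm38 and GRCh38; strand settings are not given in the sources used here. The 40481 mouse genes were used and the 55093 human genes left out of library sizes; 258 gene IDs had repeated rows, all with identical values, of which 1 each was used. In both libraries of mouse 459 the markers go against the labelled sort: the library labelled microglia had 112 CPM of microglia markers and that labelled astrocyte 37855 CPM. The mouse was left out, and kept as labelled in an alternative.

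Counts were tested with edgeR 4.0.16 (R 4.3.3; TMM, filterByExpr by group, quasi-likelihood F test, Benjamini-Hochberg over all genes tested) in 3 fits, of 13 microglia, 13 astrocyte and 26 libraries (17593, 20052 and 21612 genes), each with 1 term per group. The standard error is the log2 change divided by the root of F. Alternatives were DESeq2 size factors, DESeq2 1.42.0, limma 3.58.1 voom, no filter, mouse 459 kept, each mouse left out, the compared groups alone and the mouse as a replicate block. Both sorts come from the same mice, so mouse numbers pair them; deviations of same-mouse libraries correlated between -0.0384 and 0.0784. Libraries of 1 group differed beyond sampling noise (chi-square per degree of freedom at least 38.2). No batch is named in the labels. Levels per kb divide CPM by the union of annotated exons. The scripts were tested on simulated counts.

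The members and lists were chosen with earlier results of these data known, and the comparisons of the sorts within 1 amyloid state were added after the levels were seen. Genes named are the 5 members, in each list up to 3 called genes of lowest p per comparison, and the 5 genes of highest r with each member among those whose mean log2 CPM reached 3, predicted genes left out; some genes that these rules name are not reported here. Correlations between members use log2(CPM + 1).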

Additional observations from a re-analysis of the deposited data

Results flagged for a closer look

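Single libraries stood apart from the rest of their group in 3 of 20 groups of 4 or 5 libraries tested, where chance gives about 1 in 20. Tyro3 stood at 0.458 CPM in the APPPS1 Cre-negative microglia of mouse 439, where the other 4 had 0 to 0.112 CPM. It stood at 0.770 CPM in the APPPS1 Cre-positive microglia of mouse 475, where the other 3 had 0 to 0.0652 CPM. The values of mice 439 and 475 rest on 16 and 35 counts, and the rate of 1 in 20 need not hold for counts that low. In APPPS1 Cre-positive astrocytes Tyro3 stood at 50.3 CPM in mouse 458, where the other 3 had 29.3 to 32.9 CPM.

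The amyloid change of Axl differed between the sorts, microglia minus astrocytes, by 3.48 ± 0.44 (edgeR adjusted p 6.05e-04).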

How the results depend on the processing

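Of 1089 values of members under the alternatives, 1026 kept direction and call, 47 changed sign, 11 lost and 5 gained a call. No call changed sign. With mouse 459 kept as labelled, the Pros1 difference of amyloid changes between the sorts was -0.61, Cre changes were -0.17 for Pros1 in APPPS1 microglia, -0.015 for Axl in amyloid-free microglia and 0.024 for Axl in APPPS1 astrocytes, and amyloid changes in astrocytes were -0.15 for Tyro3 and -0.00587 for Gas6. Without the filter Axl in amyloid-free microglia was -0.037 by Cre; with limma voom Axl in APPPS1 microglia was 0.025; with DESeq2 scaling and test Gas6 between sorts in amyloid-free mice was -0.074 and -0.074. Members called for amyloid in Cre-negative microglia went from 1 to 0 with limma voom, mouse 459 kept or the compared groups alone, and in Cre-positive microglia to 2 with DESeq2 and 0 with mouse 459 kept. The cause was not tested.

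Leaving out each mouse, where a lone library is assumed to vary like the other groups, gave for amyloid in microglia -0.19 to 0.11 for Mertk and 0.16 to 0.66 for Pros1, in Cre-negative mice -0.18 to 0.16 for Pros1 and in Cre-positive mice -0.19 to 0.41 for Mertk. The difference between Cre states was -0.78 to 0.23 for Axl and -0.00415 to 0.60 for Mertk. Between the sorts it gave 0.27 to 0.45 for Mertk and 0.11 to 0.36 for Gas6, in amyloid-free mice -0.22 to 0.28 for Gas6, and for the difference of amyloid changes -0.013 to 0.63 for Pros1. For Cre in APPPS1 microglia it gave -0.44 to 0.085 for Axl, -0.12 to 0.032 for Mertk and -0.23 to 0.12 for Gas6, and in amyloid-free microglia -0.45 to 0.56 for Axl. In astrocytes amyloid gave -0.15 to 0.22 for Tyro3, -0.11 to 0.19 for Gas6 and -0.00197 to 0.20 for Pros1, Cre in APPPS1 mice -0.30 to 0.00809 for Tyro3 and -0.11 to 0.14 for Pros1, and Cre in amyloid-free mice -0.18 to 0.56 for Mertk and -0.33 to 0.064 for Pros1. Members called ranged from 1 to 2 for amyloid in microglia, 0 to 1 in Cre-negative and 0 to 2 in Cre-positive mice, and 0 to 1 for Cre in amyloid-free microglia.

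Genes called for amyloid in microglia numbered 1685, 2722 with DESeq2, 19 with mouse 459 kept and 392 (without mouse 759) to 2441 (without mouse 469) over left-out mice. In Cre-negative mice they numbered 55, 454 with DESeq2, 3 with limma voom, 265 without the filter and 0 with the compared groups alone, and in Cre-positive mice 1240, 2423 with DESeq2 and 0 with mouse 459 kept or without mouse 26. For Cre in amyloid-free microglia they numbered 2 and 146 without the filter, and in amyloid-free astrocytes 41 and 140. Over left-out mice these counts ran from 0 (without mouse 26, 439, 447, 460, 465 or 774) to 849 (without mouse 22) and from 0 (without mouse 22, 26 or 759) to 155 (without mouse 439). For the amyloid change by sort they numbered 325, 1164 with DESeq2 and 169 with limma voom. Mouse 459 kept gave 30 there. Over left-out mice the counts were 0 (without mouse 465) to 277 (without mouse 469) in Cre-negative and 0 (without mouse 26) to 1884 (without mouse 22) in Cre-positive microglia and 52 (without mouse 26) to 577 (without mouse 469) for the amyloid change by sort. With the replicate block, the paired fit, the sorts differed by -1.15 in Axl, 0.37 in Mertk, -8.40 in Tyro3, 0.21 in Gas6 and 3.44 in Pros1, and no call of a member changed. Counts limit Tyro3 in microglia, and 2 mice a group limit the amyloid-free comparisons.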
